A study of Mus musculus with 12 samples.

Results

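The Sin3-HDAC complex is described here through 10 of its subunits, Sin3a, Sin3b, Hdac1, Hdac2, Sap30, Rbbp4, Rbbp7, Arid4a, Arid4b and Brms1, in mouse embryonic fibroblasts with and without the complex's partner Ing1. The subunits were chosen by name, with earlier results of these data known. Their symbols were matched to the 37991 gene identifiers in the count tables. All 10 were found, and all 10 passed the filter on low counts.

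RNA was counted in 12 libraries, 3 for each of 4 genotypes: Wildtype (WT), Ing1-/- (Ing1 KO), Gadd45a-/- (Gadd45a KO) and Gadd45a-/-;Ing1-/- (DKO, for the cross of both mutants). All groups were primary fibroblasts of strain C57BL/6N, taken from male embryos at E15.5 and collected at passage 4 and 80% confluency, and no treatment is named. The labels' protocols describe the parents as deficient mice that were interbred and name no tissue-specific Cre. It is not stated whether a group's 3 libraries stem from different embryos, so p-values measure the spread between libraries, which may be technical.

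Sin3 proteins are scaffolds that bind no DNA themselves. They hold the deacetylases Hdac1 and Hdac2, which take acetyl groups off histone tails, and the histone-binding proteins Rbbp4 and Rbbp7, and they are brought to genes by DNA-binding repressors such as the Mad and Mnt partners of Max. Ing1 carries a PHD finger, binds with it a methyl mark on the histones of active promoters, and brings the complex there, as does its relative Ing2. Gadd45a is induced by stress and takes part in DNA repair and in removing DNA methylation.

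Ing1 was nearly absent where the labels say it was deleted, but Gadd45a was not. Ing1 read 52.1, 50.4 and 54.4 CPM (gene counts scaled to library size) in the WT and 49.7, 54.5 and 52.2 CPM in the libraries labelled Gadd45a KO. It read 1.01, 1.23 and 1.42 CPM in Ing1 KO and 1.29, 0.916 and 1.14 CPM in the libraries labelled DKO. Gadd45a averaged 21.1 ± 0.2 CPM over the WT libraries and 18.4 ± 1.9 CPM over those of Ing1 KO (SD, n = 3 each). Its mean was 100 ± 22 CPM where the label is Gadd45a KO and 126 ± 6.3 CPM where it is DKO, the reverse of what the labels name. The sources used here do not give the deleted part of the gene, and Gadd45a overlaps E230016M11Rik on the opposite strand, so these counts do not check the label, and both groups are called "labelled" throughout. Fibroblast markers were abundant in every library, with a summed level of 63077 to 80974 CPM over 12 genes, although several of them differed between genotypes, as described beside the subunits. Gene counts ran from 31493168 to 42852059 per library, which put 241 counts behind the lowest value of any subunit and 9872 behind the highest.

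The levels of the subunits, set per kilobase of annotated exon, spanned 17.7-fold in the WT. The histone-binding protein Rbbp7 was highest, at 73.7 ± 3.2 CPM per kb, followed by the deacetylase Hdac2 at 35.8 ± 1.9 and Rbbp4 at 23.5 ± 0.71 CPM per kb. The scaffolds Sin3a and Sin3b stood at 12.6 ± 0.12 and 11.5 ± 0.61 CPM per kb. Brms1, a subunit named for its effect on breast cancer metastasis, was at 9.63 ± 0.46 CPM per kb and Hdac1 at 8.37 ± 0.41. The adaptor Sap30 stood at 6.67 ± 1 CPM per kb and the ARID-domain proteins Arid4a and Arid4b at 5.31 ± 0.09 and 4.17 ± 0.13 (SD, n = 3 throughout). No neighbours in this order overlapped in their libraries. Sequence shared with other genes, given below for Hdac1, Rbbp4, Rbbp7 and Brms1, was not corrected for.

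The order depended on the length used only below the third place. Set per kilobase of the longest coding transcript, Rbbp7, Hdac2 and Rbbp4 kept the top places, at 95.5 ± 4.1, 49.2 ± 2.6 and 46.7 ± 1.4 CPM per kb, and the libraries of Hdac2 and Rbbp4 then overlapped. Sin3b stood above Sin3a on that scale, at 20.6 ± 1.1 against 13 ± 0.12 CPM per kb, and Arid4b moved up to 12.1 ± 0.39 CPM per kb, with 5864 bases in place of 16965. Lengths came from an annotation of another build than the authors used.

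**Figure D1:**
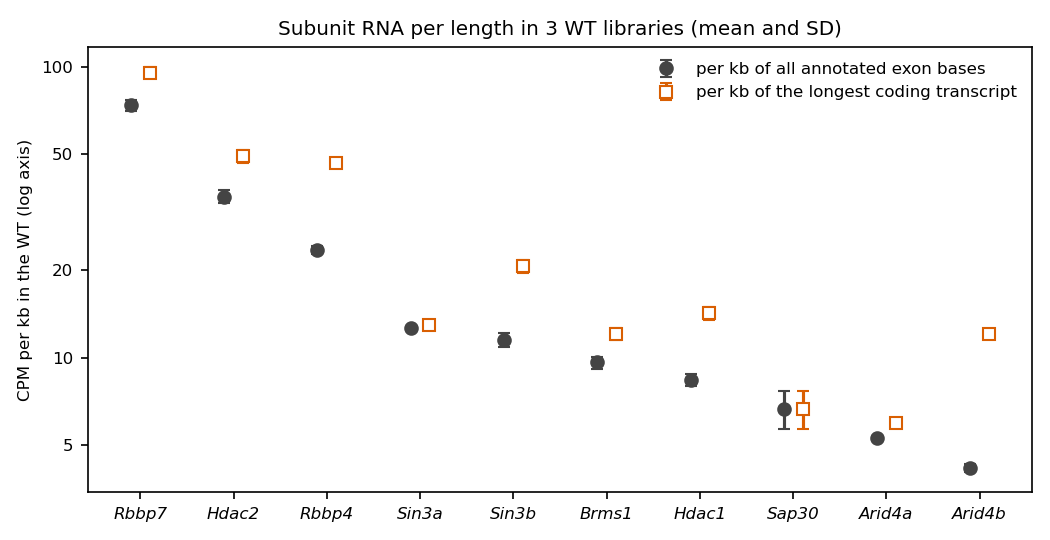
Level of each subunit in the 3 WT libraries, in CPM per kb on a log axis, as mean and SD. Filled circles divide by all annotated exon bases and open squares by the longest coding transcript. Rbbp7, Hdac2 and Rbbp4 are the 3 highest on either scale, and Sap30 and Arid4a stay low on both.

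The promoters of 4 starts are shown for 3 members with different patterns between genotypes: Sin3a, higher without Ing1; Sap30, higher in the libraries labelled DKO alone; and Rbbp4, which had the narrowest range. RefSeq promoters were found by symbol for 7 of the 10 members, not for Hdac1, Arid4a and Brms1. Each sequence is the 250 bases before the start, 5′ to 3′ on the gene's strand, on GRCm38.p6, from RefSeq, and capitals mark matches to the motifs named in the next paragraph.
Sin3a start 1 (chr9:57071790-57072039, plus strand): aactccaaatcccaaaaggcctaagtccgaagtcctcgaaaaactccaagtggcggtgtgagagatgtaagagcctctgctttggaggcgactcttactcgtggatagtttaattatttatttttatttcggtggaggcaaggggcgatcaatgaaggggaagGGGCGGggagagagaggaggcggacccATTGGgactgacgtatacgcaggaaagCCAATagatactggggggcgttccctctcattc
Sin3a start 2 (chr9:57076126-57076375, plus strand): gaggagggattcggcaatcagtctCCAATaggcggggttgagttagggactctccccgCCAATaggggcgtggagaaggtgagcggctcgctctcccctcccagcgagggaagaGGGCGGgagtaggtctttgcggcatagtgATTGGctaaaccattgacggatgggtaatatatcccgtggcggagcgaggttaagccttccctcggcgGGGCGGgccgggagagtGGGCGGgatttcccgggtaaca
Sap30 (chr8:57487861-57488110, minus strand): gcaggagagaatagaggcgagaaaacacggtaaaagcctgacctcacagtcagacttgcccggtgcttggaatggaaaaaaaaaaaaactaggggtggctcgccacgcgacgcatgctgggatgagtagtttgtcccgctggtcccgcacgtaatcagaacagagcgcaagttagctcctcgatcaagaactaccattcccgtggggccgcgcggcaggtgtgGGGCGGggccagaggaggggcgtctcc
Rbbp4 (chr4:129335371-129335620, minus strand): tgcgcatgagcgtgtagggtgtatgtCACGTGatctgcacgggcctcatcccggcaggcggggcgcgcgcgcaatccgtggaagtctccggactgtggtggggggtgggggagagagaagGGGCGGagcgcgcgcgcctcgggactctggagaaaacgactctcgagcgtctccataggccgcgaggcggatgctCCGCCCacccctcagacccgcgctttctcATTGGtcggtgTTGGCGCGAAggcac

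Letters were searched on both strands for the CCAAT box (CCAAT), the GC box (GGGCGG), the E box (CACGTG), which Mxi1, Mnt and Max bind, E2F-like letters (any of TTCCCGC, and also TTCGCGC, as well as TTGCCGC, and finally TTGGCGC) and the CHR element of cell cycle genes (TTTGAA). The starts of Sin3a held 2 and 3 CCAAT boxes and 1 and 3 GC boxes. Sap30 held 1 GC box and no other of these letters. Rbbp4 held 1 CCAAT box, 2 GC boxes, 1 E box and 2 E2F-like matches that overlap each other. Of all 32851 promoter windows of this length, 33.8% held the CCAAT letters, 32.7% the GC box, 6.02% the E box, 7.89% the E2F-like letters and 16% the CHR. These are matches of letters, not sites shown to be bound.

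Sin3a (ENSMUSG00000042557, chromosome 9), the scaffold that most of the complex is built on, was higher in both groups that lack Ing1. The WT libraries held 67.5, 68.4 and 67.2 CPM, and those labelled Gadd45a KO 68.8, 67.3 and 67.6 CPM. It read 77.7, 77.2 and 80.6 CPM in Ing1 KO and 80.7, 77.7 and 85.5 CPM under the label DKO. The 6 libraries without Ing1 lay between 77.2 and 85.5 CPM (median 79.2) and the 6 with it between 67.2 and 68.8 CPM (median 67.5), with no overlap; 4.42% of all genes tested were higher in this way. Sin3a rose 1.16-fold in Ing1 KO against the WT (log2 0.21 ± 0.04 SE, 95% interval 0.13 to 0.3, edgeR adjusted p = 0.00297). Here and below a gene is called, and said to rise or fall, at an adjusted p under 0.05 over all 15098 genes tested. It rose 1.2-fold in the libraries labelled DKO against those labelled Gadd45a KO (log2 0.26 ± 0.04 SE, 0.17 to 0.35, adjusted p = 0.000661), a comparison that shares no library with the former. The interaction, which is the difference between those 2 changes, was 0.05 ± 0.06 on the log2 scale (-0.08 to 0.17, adjusted p = 0.619). In a bulk sample, fewer cells of a type and less RNA per cell cannot be told apart, nor can the reverse, and 3.81% of the exon bases of Sin3a overlap Man2c1os on the opposite strand.

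Sin3b (ENSMUSG00000031622, chromosome 8), the other scaffold, lay close to the threshold in both comparisons of libraries without Ing1 with the WT. The WT libraries held 87.5, 87.2 and 79.6 CPM, and those labelled Gadd45a KO 91.2, 89.1 and 90.6 CPM. It read 90.3, 92.3 and 93.9 CPM in Ing1 KO and 93.1, 92.1 and 91.7 CPM under the label DKO. WT replicate 3 was the lowest of the 12 libraries, and the 3 of the WT lay below the other 9, as they did for 2.16% of all genes. The difference from the WT was 0.12 ± 0.04 on the log2 scale in Ing1 KO (adjusted p = 0.0502) and 0.12 ± 0.04 in the libraries labelled DKO (adjusted p = 0.0435), on either side of the threshold, and which of them was called depended on the tool. The first was called by DESeq2 (adjusted p = 0.0297), with RLE scaling (0.0401) and without WT replicate 1 (0.0379), and ran up to 0.155 over 13 alternatives. DESeq2 and RLE scaling did not call the second (0.0542 and 0.0589). The second passed the threshold in only 2 of 13 alternatives (other scalings, tools or filters, or a library left out), which gave adjusted p of 0.0379 to 0.184 and, without WT replicate 3, a difference of 0.08 with adjusted p = 0.127. Against the libraries labelled Gadd45a KO, those labelled DKO differed by 0.03 (-0.06 to 0.12, adjusted p = 0.621).

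Of the deacetylases, Hdac1 (ENSMUSG00000028800, chromosome 4) rose in the libraries labelled DKO, while Hdac2 did not pass the test in any comparison. The WT libraries held 27.3, 30 and 29.3 CPM of Hdac1, and those labelled Gadd45a KO 27.8, 28.3 and 29.4 CPM. It read 32.2, 32.1 and 30.6 CPM in Ing1 KO and 34.1, 32.6 and 31.7 CPM under the label DKO. All 6 libraries without Ing1 (30.6 to 34.1 CPM, median 32.1) lay above all 6 with it (27.3 to 30 CPM, median 28.8), again a pattern that 4.42% of genes showed. Hdac1 rose 1.14-fold in the libraries labelled DKO against the WT (log2 0.18 ± 0.05 SE, edgeR adjusted p = 0.0171) and 1.15-fold against those labelled Gadd45a KO (log2 0.2 ± 0.05 SE, adjusted p = 0.011). In Ing1 KO against the WT the difference was 0.13 ± 0.05 (0.02 to 0.24, adjusted p = 0.0765). Leaving out DKO replicate 1 ended the calls of the DKO comparisons, at adjusted p = 0.089 against the WT and 0.0572 against the libraries labelled Gadd45a KO. The call against the WT was also lost without WT replicate 1 (adjusted p = 0.0704), with upper quartile scaling (0.0699) and in a fit of only the groups compared (0.058), and that against the labelled Gadd45a KO without its replicate 1 (adjusted p = 0.0522); over all alternatives these calls had adjusted p of 0.0209 to 0.089 and 0.0121 to 0.0572. A share of 35.22% of the 51-base words of Hdac1 also occurs in other genes, chiefly the near-identical copy Gm10093, so its counts are uncertain.

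Hdac2 (ENSMUSG00000019777, chromosome 10) was the more abundant deacetylase per length, at 31 to 37.3 CPM per kb of exon over all libraries against 7.91 to 9.9 CPM per kb for Hdac1. The share of 51-base words that also occur in other genes, 35.22% for Hdac1 and 0% for Hdac2, was not corrected for. The level of Hdac2 was lowest in Ing1 KO. The WT libraries held 150, 163 and 167 CPM and those of Ing1 KO 147, 139 and 154 CPM, so the groups overlapped. It read 154, 154 and 159 CPM in the libraries labelled Gadd45a KO and 156, 161 and 162 CPM under the label DKO. The difference of Ing1 KO from the WT was -0.13 ± 0.05 on the log2 scale (-0.23 to -0.02, adjusted p = 0.077), and that of the libraries labelled DKO was 0 (-0.11 to 0.1, adjusted p = 0.979). The first passed the threshold in 3 of 13 alternatives, among them leaving out WT replicate 1 (-0.17, adjusted p = 0.0265) or Ing1 KO replicate 3 (-0.16, adjusted p = 0.0364).

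The histone-binding subunits Rbbp4 (ENSMUSG00000057236, chromosome 4) and Rbbp7 (ENSMUSG00000031353, chromosome X), which are shared with several other chromatin complexes, varied little and were not called in any comparison. Rbbp4 read 199, 212 and 206 CPM in the WT, 208, 199 and 209 CPM under the label Gadd45a KO, 195, 209 and 210 CPM in Ing1 KO and 214, 205 and 205 CPM under the label DKO. All groups overlapped, and the highest library was 1.1-fold above the lowest, the narrowest range of the 10 subunits. The interval of its log2 difference was -0.1 to 0.08 in Ing1 KO against the WT and -0.07 to 0.11 in the libraries labelled DKO against those labelled Gadd45a KO. Rbbp7 read 208, 210 and 225 CPM in the WT, 217, 207 and 209 CPM under the label Gadd45a KO, 227, 238 and 227 CPM in Ing1 KO and 226, 227 and 220 CPM under the label DKO. The Ing1 KO libraries lay above those of the WT, in a comparison where 37.2% of all genes did not overlap. The difference was 0.1 on the log2 scale (0.01 to 0.19, edgeR adjusted p = 0.0869), and 0.14 with adjusted p = 0.0312 without WT replicate 3. Rbbp4 shares 17.04% and Rbbp7 11% of 51-base words with other genes, and each overlaps a gene on the opposite strand (Sync and Txlng).

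Sap30 (ENSMUSG00000031609, chromosome 8), a small adaptor that ties the deacetylases to Sin3, rose in the libraries labelled DKO, where its fold change was the largest of the 10 subunits. It read 6.56, 8.1 and 8.9 CPM in the WT, 6.61, 9.01 and 7.63 CPM under the label Gadd45a KO, and 9.54, 7.92 and 7.65 CPM in Ing1 KO. It read 14.5, 13.6 and 13.2 CPM under the label DKO. These 3 libraries lay above all 9 others, of which the highest was Ing1 KO replicate 1; 11.7% of all genes were above the other 9 libraries in this way. Sap30 rose 1.75-fold against the WT (log2 0.81 ± 0.13 SE, 95% interval 0.53 to 1.09, edgeR adjusted p = 0.000789). It rose 1.78-fold against the libraries labelled Gadd45a KO (0.83 ± 0.13, adjusted p = 0.000639) and 1.65-fold against Ing1 KO (0.72 ± 0.13, adjusted p = 0.00184). In neither single-mutant group did it pass the test, with log2 differences from the WT of 0.09 (-0.19 to 0.38, adjusted p = 0.66) in Ing1 KO and -0.02 (-0.3 to 0.27, adjusted p = 0.981) in the libraries labelled Gadd45a KO.

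The change in Sap30 was larger in the Gadd45a-mutant background as labelled than in the WT background. The interaction was 0.74 ± 0.18 on the log2 scale (0.34 to 1.13, edgeR adjusted p = 0.0187). Over the alternatives it lay between 0.64 and 0.85 with adjusted p of 0.00381 to 0.0521, and it missed the threshold without WT replicate 3 (0.64, adjusted p = 0.0521) or Ing1 KO replicate 2 (0.7, adjusted p = 0.0504).

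Brms1 (ENSMUSG00000080268, chromosome 19) rose in both groups that lack Ing1 against the WT, whose libraries were the lowest. The WT libraries held 17.7, 16.8 and 16.1 CPM, and those labelled Gadd45a KO 19.3, 19.1 and 18.7 CPM. It read 18.7, 20.9 and 21.9 CPM in Ing1 KO and 20.6, 20.7 and 21.6 CPM under the label DKO. All 9 mutant libraries lay above the 3 of the WT, as they did for 2.16% of all genes. Brms1 rose 1.22-fold in Ing1 KO (log2 0.28 ± 0.06 SE, 0.14 to 0.42, edgeR adjusted p = 0.00733) and 1.24-fold in the libraries labelled DKO (0.31 ± 0.06, 0.17 to 0.45, adjusted p = 0.00344), each against the WT. These comparisons share the WT libraries. In the libraries labelled Gadd45a KO the difference from the WT was 0.17 ± 0.06 (0.03 to 0.31, adjusted p = 0.517), and against them those labelled DKO differed by 0.14 ± 0.06 (0 to 0.28, adjusted p = 0.128). A share of 74.3% of the 51-base words of Brms1 lies also in the readthrough gene AC124502.3. That gene overlaps 79.03% of the exon bases of Brms1 on the same strand and has no identifier in the count tables. Any reads of it in the shared bases cannot be told apart from those of Brms1.

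Of the pair with a DNA-binding ARID domain, Arid4a (ENSMUSG00000048118, chromosome 12) rose in the libraries labelled DKO against those labelled Gadd45a KO, and Arid4b (ENSMUSG00000039219, chromosome 13) was not called in any comparison. Arid4a read 29.6, 29.4 and 30.4 CPM in the WT, 29.2, 28.4 and 28.6 CPM under the label Gadd45a KO, 30.1, 30.3 and 32.6 CPM in Ing1 KO and 31.5, 32.7 and 34.3 CPM under the label DKO. The libraries labelled DKO lay above those of the WT and of the labelled Gadd45a KO. Over all genes, 41.3% did not overlap in the first of these comparisons and 45.7% in the second. Arid4a rose 1.14-fold over the libraries labelled Gadd45a KO (log2 0.19 ± 0.05 SE, edgeR adjusted p = 0.0105), while against the WT the difference was 0.14 ± 0.05 (0.03 to 0.25, adjusted p = 0.0503). The call was lost without Gadd45a KO replicate 2 (0.17, adjusted p = 0.0502) or DKO replicate 3 (0.16, adjusted p = 0.0522), and adjusted p ran from 0.0103 to 0.0522 over the alternatives.

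Arid4b read 69.3, 69.5 and 73.3 CPM in the WT, 73, 68.8 and 69.6 CPM under the label Gadd45a KO, 65.9, 63.7 and 68 CPM in Ing1 KO and 70.4, 68.2 and 71.8 CPM under the label DKO. The Ing1 KO libraries were the lowest and did not overlap the WT, as was so for 37.2% of all genes. Their difference was -0.1 ± 0.04 on the log2 scale (-0.19 to -0.01, edgeR adjusted p = 0.0992).

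**Figure D2:**
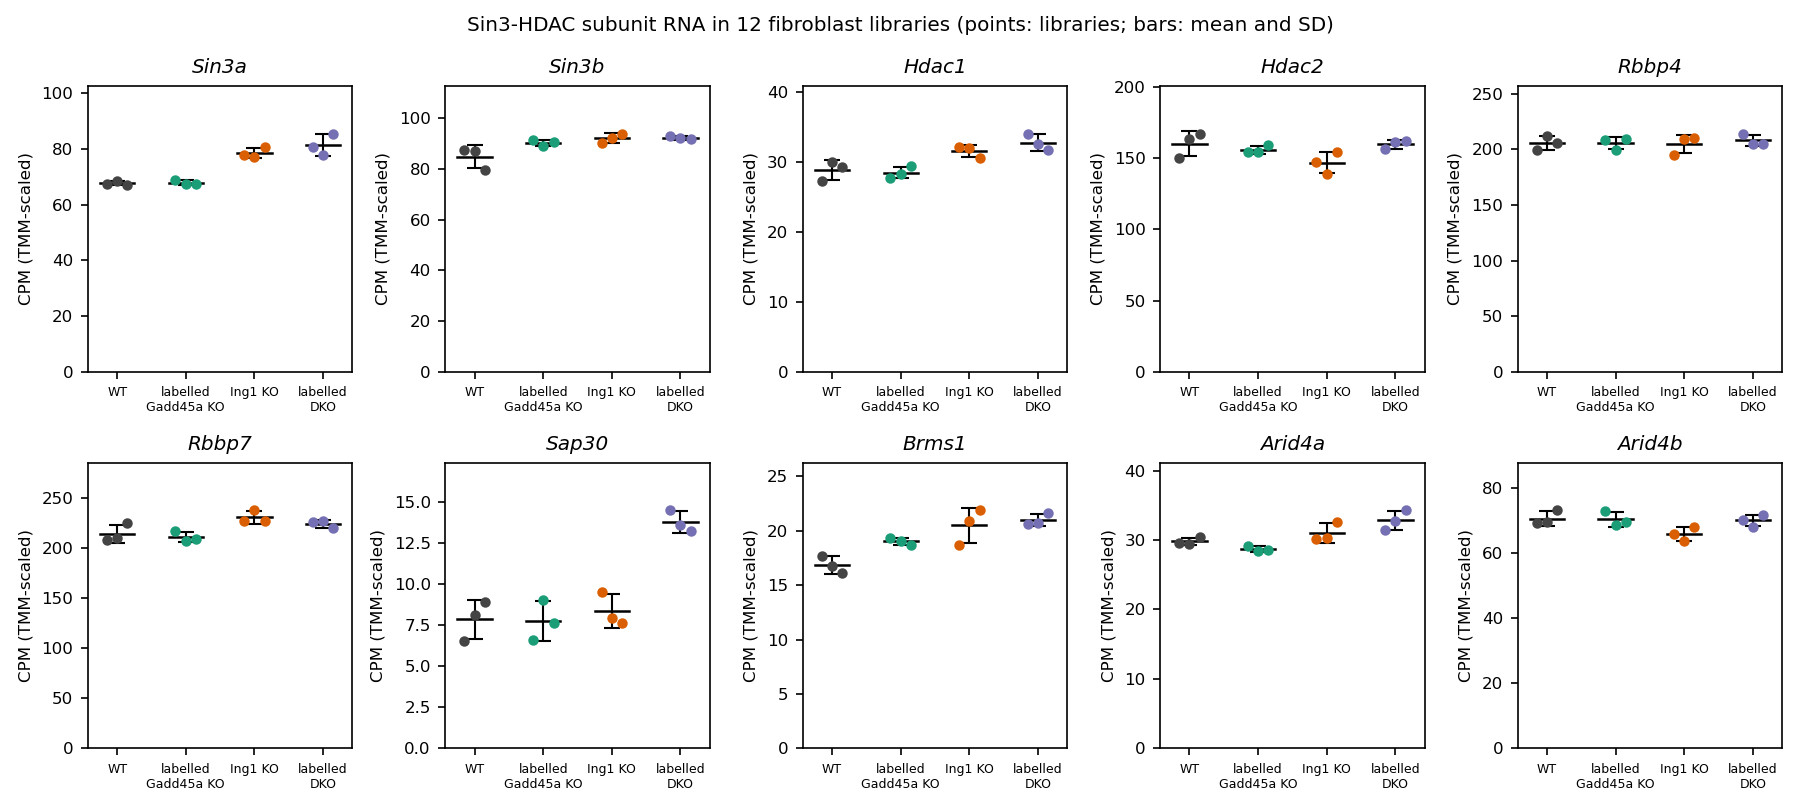
Level of each subunit in CPM in the 12 libraries, by genotype group, with points for libraries and bars for mean and SD (n = 3). Sin3a and Hdac1 are higher in the 6 libraries without Ing1, Sap30 stands apart in the 3 labelled DKO, and the groups overlap for Rbbp4.

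Counted by comparison, the subunits that passed the test all rose. In Ing1 KO against the WT 2 of 10 rose, Sin3a and Brms1, beside 23.5% of all 15098 genes called in either direction and 12.1% called higher. DESeq2 called 3, with Sin3b. None fell by edgeR or by DESeq2, though 2, Hdac2 and Arid4b, had a negative difference at an unadjusted p under 0.05 and were called lower with upper quartile scaling (adjusted p = 0.0436 and 0.0482). Of all 15098 genes, 5482 had an unadjusted p under 0.05 in this comparison, in either direction. The median log2 difference was 0.1 over the subunits and 0 over all genes, whose median absolute difference was 0.15. In the libraries labelled DKO against those labelled Gadd45a KO 4 of 10 rose, Sap30, Sin3a, Arid4a and Hdac1, beside 26.4% of genes called and 15.8% called higher. Their median was 0.12, against 0 over all genes.

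Against the WT, 5 of 10 subunits rose in the libraries labelled DKO, beside 25.9% of genes called and 15.6% called higher and 10.3% lower, with a median of 0.13 against 0.01. None fell in either DKO comparison by edgeR or DESeq2, and 0 had a negative difference at an unadjusted p under 0.05. Of all 15098 genes, 5593 had such a p against the WT and 5730 against the labelled Gadd45a KO, in either direction. Against Ing1 KO, Sap30 alone rose in the libraries labelled DKO, beside 24.8% of genes called (14.9% higher and 9.88% lower), and it was also the 1 subunit of 10 called for the interaction, beside 17.8% (10.4% higher and 7.4% lower). In the libraries labelled Gadd45a KO against the WT 0 of 10 were called by edgeR and 0 by DESeq2. Over all genes edgeR called 0.00662% there, which is Gadd45a alone. At an unadjusted p under 0.05, 2 subunits were higher, beside 1331 of all 15098 genes in either direction.

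The libraries of both groups did not overlap for 6 of 10 subunits in Ing1 KO against the WT, where 37.2% of all genes did not overlap, and for 7 of 10 in the labelled DKO against the labelled Gadd45a KO, where 45.7% did not. The count was 6 against the WT in the labelled DKO (41.3% of genes), 3 against Ing1 KO (39.1%) and 3 in the labelled Gadd45a KO against the WT (14.7%). Over all 12 libraries Sin3a and Hdac1 were the 2 subunits with every library without Ing1 above every library with it, and 0 subunits lay wholly below, as 5.09% of genes did.

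The split of calls over all genes depended on the scaling, while no called subunit changed direction with it. Of the genes called in the libraries labelled DKO against the WT, 2348 were higher and 1561 lower, and with upper quartile scaling 1872 were higher and 2179 lower. Against the libraries labelled Gadd45a KO, 2387 were higher and 1601 lower, and with upper quartile scaling 1887 and 2234.

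**Figure D3:**
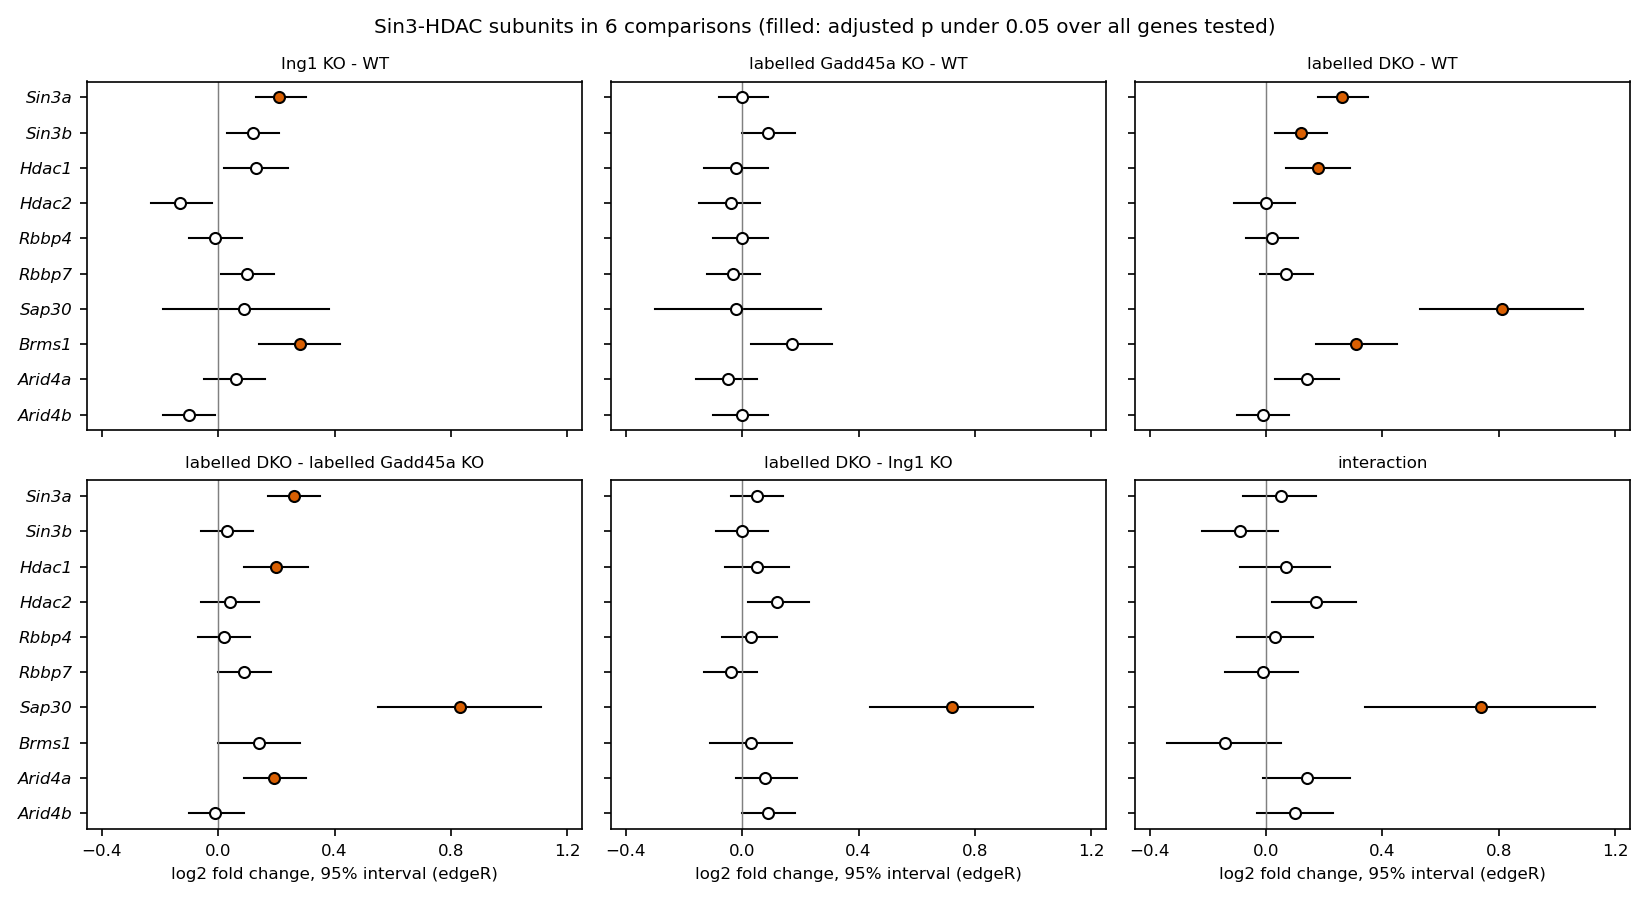
Log2 fold change of each subunit with its 95% interval in 6 comparisons, from edgeR; filled points have an adjusted p under 0.05 over all genes. Sin3a is filled in the 3 comparisons of libraries without Ing1 with libraries that have it, and Sap30 lies far to the right in all 4 that involve the labelled DKO.

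The libraries labelled DKO also held more RNA of macrophage markers and of cell cycle genes. The values of Sap30, Hdac1, Arid4a, Sin3a, Sin3b and Brms1 in these libraries have to be read beside this. The summed level of 17 macrophage markers, none of them at 0 in all libraries of a group, was 2210 to 2773 CPM there, against 263 to 448 CPM in the WT, 139 to 546 CPM in the libraries labelled Gadd45a KO and 352 to 616 CPM in Ing1 KO. Of the 16 that could be tested, 16 rose against the WT, with a median log2 difference of 2.59. The summed level of 16 DNA replication genes was 992 to 1018 CPM there, against 740 to 831 CPM in the WT, 706 to 787 CPM in the libraries labelled Gadd45a KO and 755 to 802 CPM in Ing1 KO; 16 of 16 rose against the WT. All 14 mitosis genes rose against the WT as well, beside 15.6% of all genes called higher. The part of these in the results for the subunits was not tested. 

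Fibroblast markers differed as well, also in Ing1 KO, where Sin3a and Brms1 rose. Of 12 markers 2 rose and 5 fell in Ing1 KO against the WT (median log2 difference -0.15), 2 fell in the libraries labelled DKO against the WT, and 3 fell against those labelled Gadd45a KO. Over all genes 12.1% were called higher and 11.4% lower in the first comparison, and 10.3% and 10.6% lower in the others. Named after their values were seen, Dcn, a matrix proteoglycan, went from 393 ± 43 CPM over the WT to 133 ± 33 CPM over the Ing1 KO libraries (log2 -1.56 ± 0.15 SE, edgeR adjusted p = 0.000264), and Pdgfra, a growth factor receptor, from 716 ± 69 to 412 ± 79 CPM (-0.8 ± 0.14, adjusted p = 0.00315). The intermediate filament gene Vim rose by 0.36 ± 0.06 (adjusted p = 0.00161) and the surface protein gene Thy1 by 0.32 ± 0.07 (adjusted p = 0.00443). In the same comparison 2 of 14 mitosis genes rose, with 12 positive, and 2 of 16 replication genes rose and 1 fell. Of 16 macrophage markers 12 had a positive difference (median 0.26), and 0 were called by edgeR or DESeq2 or had an unadjusted p under 0.05. The part of these in the results for Sin3a and Brms1 was not tested.

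The gene whose pattern was nearest to that of Sap30 was Mxi1, a Max partner that recruits Sin3 to E boxes. Over the 12 libraries the log2 CPM of the pair had a Pearson r of 0.983, the highest among 11656 genes, followed by the oxygen sensor Egln1 at 0.982. Mxi1 read 31.8, 38.4 and 39.4 CPM in the WT, 32.8, 42.9 and 37.7 CPM under the label Gadd45a KO, 44.5, 34.3 and 33.6 CPM in Ing1 KO and 61.5, 60.5 and 62.3 CPM under the label DKO. In 3 of the 4 groups, all but the labelled DKO, the libraries stood in the same order for Mxi1 as for Sap30. Mxi1 rose 1.68-fold in the libraries labelled DKO against the WT (log2 0.75 ± 0.12 SE, edgeR adjusted p = 0.00158), and its interaction was 0.67 ± 0.18 (adjusted p = 0.0276). These libraries share depth and group, so the correlation is a description.

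**Figure D4:**
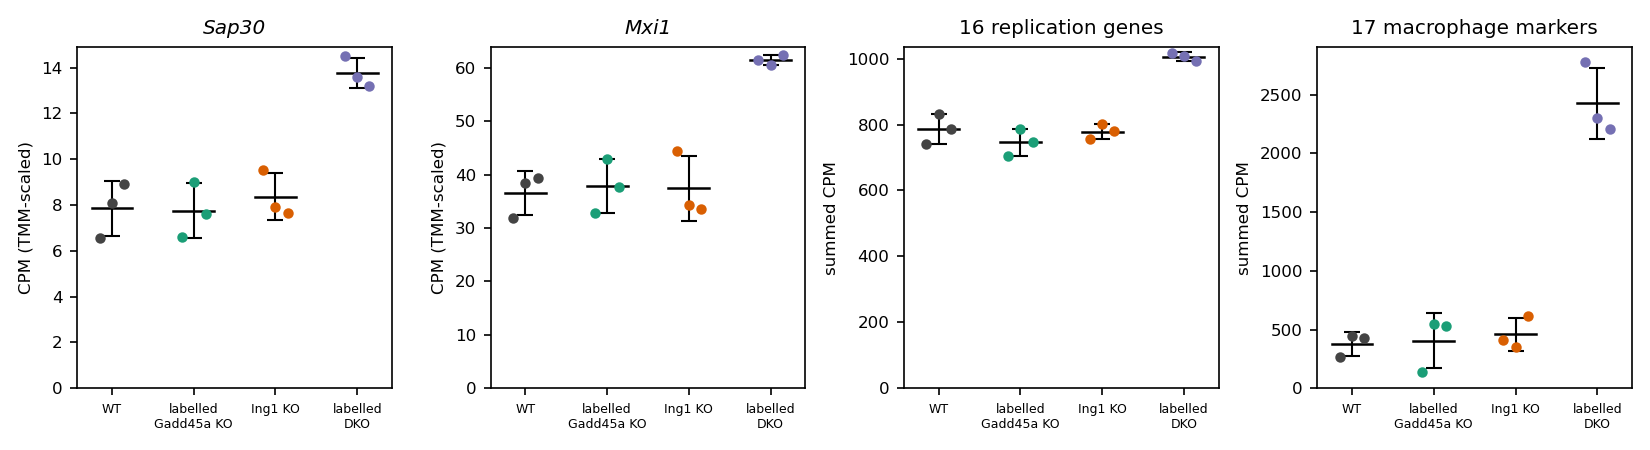
Values in the 12 libraries, by group, of Sap30 beside Mxi1 and beside summed CPM of gene lists. The 3 libraries labelled DKO are highest for Sap30 (13.2 to 14.5 CPM) and Mxi1 (60.5 to 62.3 CPM), and for the replication (992 to 1018 CPM) and macrophage (2210 to 2773 CPM) sums.

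Among the other called subunits, the genes nearest in pattern were Tubb4b and Clic1 for Sin3a (r of 0.96 and 0.959), Nr1h2 and Hps6 for Sin3b (0.955 and 0.947), and Stom and Mmd for Hdac1 (0.943 and 0.942). They were Nexmif and Mpp1 for Arid4a (0.937 and 0.93) and Rab35 and Bcl7a for Brms1 (0.958 and 0.955).

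Ratios of paralogs within a library do not depend on the scaling between libraries, and they are given as a description, since the share of other gene pairs that separate the same libraries was not computed. The log2 ratio of Hdac1 to Hdac2 counts was -2.46, -2.44 and -2.51 in the WT, and the Ing1 KO libraries gave -2.18, -2.11 and -2.34. Those labelled Gadd45a KO gave -2.46, -2.44 and -2.43, and those labelled DKO -2.19, -2.31 and -2.36. The 6 libraries without Ing1 thus all lay above the 6 with it. The ratio of Arid4a to Arid4b behaved alike, at -1.25 ± 0.02 in the WT and -1.29 ± 0.03 in the libraries labelled Gadd45a KO, against -1.09 ± 0.04 in Ing1 KO and -1.1 ± 0.06 in those labelled DKO (SD, n = 3 each). The ratio of Sin3a to Sin3b was lowest in the libraries labelled Gadd45a KO, at -0.41 ± 0.01, without overlap with the other groups. It was -0.32 ± 0.07 in the WT, -0.23 ± 0.02 in Ing1 KO and -0.18 ± 0.08 in the libraries labelled DKO, and overlapped between these groups. That of Rbbp4 to Rbbp7 overlapped the WT in all groups, from -0.17 ± 0.06 in Ing1 KO to -0.04 ± 0.03 in the libraries labelled Gadd45a KO. A ratio shows unequal change of the pair and not which gene changed.

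Sap30 and Brms1 shifted against relatives outside the list. Sap30 to Sap30l stood at -0.84 ± 0.33 in the WT and at -0.16 ± 0.24 in the libraries labelled DKO, without overlap, while Sap30l itself was not called (0.14 ± 0.09 against the WT, edgeR adjusted p = 0.284). Brms1 to Brms1l stood at -1.59 ± 0.08 in the WT, -1.4 ± 0.01 in the libraries labelled Gadd45a KO, -1.16 ± 0.15 in Ing1 KO and -1.18 ± 0.04 in those labelled DKO, with the 6 libraries without Ing1 above the 6 with it. Brms1l fell by 0.15 ± 0.04 on the log2 scale in Ing1 KO against the WT (adjusted p = 0.0276).

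**Figure D5:**
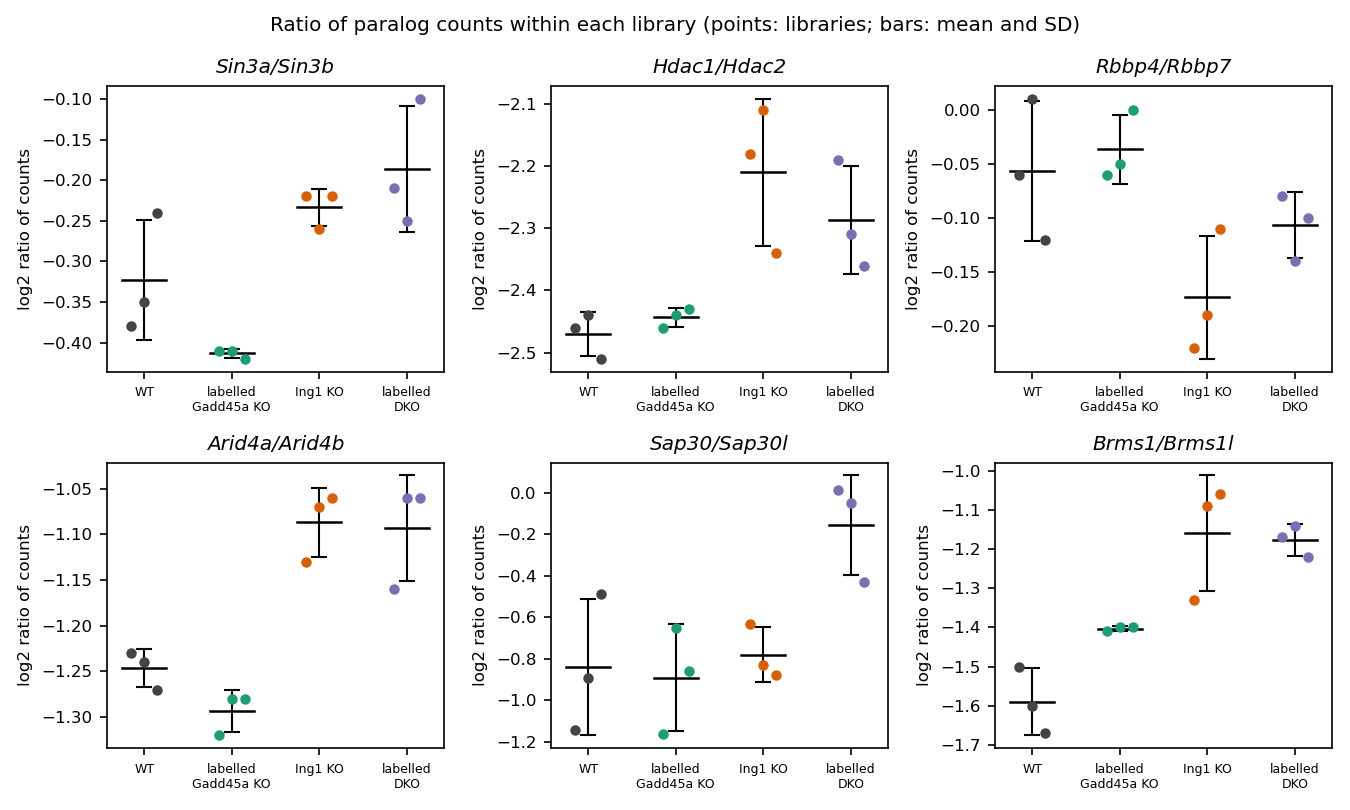
Log2 ratio of the counts of paralogs in each of the 12 libraries, by group, with mean and SD (n = 3). Hdac1/Hdac2, Arid4a/Arid4b and Brms1/Brms1l are higher in the 6 libraries without Ing1, and Sap30/Sap30l is highest in the 3 labelled DKO.

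Other subunits and recruiters of the complex moved in either direction. Of 22 tested, 5 rose and 4 fell in Ing1 KO against the WT (median log2 difference 0.04), 5 rose and 2 fell in the libraries labelled DKO against those labelled Gadd45a KO (0.04), and 7 rose and 2 fell against the WT (0.08). Over all genes 23.5%, 26.4% and 25.9% were called in these 3 comparisons. Ing2, the relative of Ing1 in the same complex, rose in all 3: it averaged 9.31 ± 0.35 CPM over the WT libraries, 11.1 ± 0.31 in Ing1 KO, 9.19 ± 0.47 in the libraries labelled Gadd45a KO and 13 ± 0.64 in those labelled DKO. The log2 change was 0.26 ± 0.07 in Ing1 KO against the WT (edgeR adjusted p = 0.0195) and 0.51 ± 0.07 in the libraries labelled DKO against those labelled Gadd45a KO (adjusted p = 0.00033), with an interaction of 0.25 (adjusted p = 0.0979). Suds3, a subunit that binds Sin3 and stimulates its deacetylases, rose by 0.19 ± 0.04 (adjusted p = 0.00758) and 0.18 ± 0.04 (adjusted p = 0.00756) in the same pair of comparisons. Sinhcaf, another subunit, rose in the libraries labelled DKO against those labelled Gadd45a KO (0.43 ± 0.08, adjusted p = 0.00253), and Sap130 rose in Ing1 KO (0.23 ± 0.04, adjusted p = 0.00222). The 4 that fell in Ing1 KO were Brms1l, given above, Sap18 (-0.22 ± 0.06, edgeR adjusted p = 0.025), Ogt (-0.21 ± 0.06, 0.029) and Morf4l1 (-0.14 ± 0.04, 0.0235). Sap18 also fell in the libraries labelled DKO against the WT (-0.18 ± 0.06, adjusted p = 0.0499). Sinhcaf, Mxi1 and Ing2 overlap genes on the opposite strand over 5.75%, 2.84% and 1.52% of their exon bases. Sap18 and Morf4l1 do so over 1.43% and 15.37%.

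The recruiters Foxk1 and Mnt had negative interactions. Foxk1, a forkhead factor that binds Sin3, rose in Ing1 KO against the WT (0.32 ± 0.05, edgeR adjusted p = 0.00126), and its interaction was -0.39 ± 0.08 (adjusted p = 0.00615). Mnt, a Max partner that represses Myc targets, rose in Ing1 KO (0.24 ± 0.05, adjusted p = 0.00514) and fell by 0.21 ± 0.05 in the libraries labelled DKO against those labelled Gadd45a KO (adjusted p = 0.00693). Its interaction was -0.45 ± 0.07 (adjusted p = 0.00262).

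Other complexes that hold Hdac1, Hdac2, Rbbp4 or Rbbp7 gave mixed counts. Of 10 NuRD genes, which code for a nucleosome-remodelling deacetylase, 4 rose in Ing1 KO, among them the methyl-DNA-binding family member Mbd3 (0.21 ± 0.05, edgeR adjusted p = 0.00748) and Gatad2a (0.24 ± 0.05, adjusted p = 0.00357). In the libraries labelled DKO against those labelled Gadd45a KO 1 rose and 1 fell. Of 9 CoREST genes 1 rose and 2 fell in Ing1 KO and 3 rose and 2 fell in the latter comparison, where Rcor2 had the smallest adjusted p (0.57 ± 0.13, adjusted p = 0.00866). The 2 MiDAC genes with an identifier had log2 differences of 0.03 and 0.06 in Ing1 KO and were not called. Of 9 histone acetyltransferases, whose reaction is the reverse of the complex's, 1 fell in Ing1 KO and 2 fell in the libraries labelled DKO against the WT. Over all genes, 12.1% were called higher and 11.4% lower in Ing1 KO against the WT. For the libraries labelled DKO, 15.8% were called higher and 10.6% lower against those labelled Gadd45a KO, and 10.3% lower against the WT.

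Genes of the other Rbbp4 and Rbbp7 complexes, among them chromatin assembly factors and polycomb, were mostly higher in the libraries labelled DKO, although Rbbp4 and Rbbp7 themselves were not called. Of 13 genes 8 rose and 1 fell against the WT (median 0.28), beside 15.6% of all genes called higher and 10.3% lower. In Ing1 KO against the WT 2 fell (median 0.02), beside 11.4% of all genes called lower. Chaf1b, a subunit of the replication-coupled assembly factor, rose by 0.58 ± 0.08 against the libraries labelled Gadd45a KO (edgeR adjusted p = 0.000221). The histone chaperone Asf1b rose by 0.73 ± 0.11 against the WT (adjusted p = 0.000465), and the polycomb methyltransferase Ezh2 by 0.33 ± 0.06 (adjusted p = 0.00179). Chaf1a rose too (0.51 ± 0.06, adjusted p = 0.000174), but 52.5% of its exon bases overlap Ubxn6 on the opposite strand. The remodeller Smarca1 fell by 0.79 ± 0.11 in Ing1 KO (adjusted p = 0.000899). These rose beside the replication genes described above, and the part of those was not tested.

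Of 16 other deacetylases, 1 rose and 1 fell in Ing1 KO against the WT, beside 23.5% of all genes called. In the libraries labelled DKO against the WT 2 rose and 1 fell, beside 25.9% of all genes called. Hdac9, a class II deacetylase, rose 2.3-fold in the latter, from 4.7 ± 0.6 CPM to 10.8 ± 1.3 CPM (log2 1.2 ± 0.19 SE, edgeR adjusted p = 0.00094). Hdac5, of the same class, rose in Ing1 KO (0.28 ± 0.06, adjusted p = 0.00665) and in the libraries labelled DKO (0.25 ± 0.06, adjusted p = 0.0113), each against the WT. Hdac4, also of that class, was the 1 that fell in the libraries labelled DKO, from 27.4 ± 1.7 CPM in the WT to 22.3 ± 2.4 CPM. Hdac11 was the 1 that fell in Ing1 KO, from 11.6 ± 1.8 CPM in the WT to 8.84 ± 0.28 CPM (SD, n = 3 each). On the opposite strand, Gm26720 overlaps 22.36% of the exon bases of Hdac4, and Gm44002 overlaps 15.43% of those of Hdac11.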

How the data were processed

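The values used are read counts per gene in 12 libraries, which the authors deposited as 1 table per library, each with 37991 gene identifiers and 5 summary lines. Per the submitters' processing notes, TopHat2 2.0.9, Bowtie2 2.1.0, HTSeq 0.5.4 and DESeq were used with mm9 (NCBIM37). The sources used here give no strand setting for the counting, and the kit does not mark strand, so overlapping genes on opposite strands cannot be told apart. The summary lines, 23.89% to 24.91% of listed reads, were left out of library sizes. Symbols and lengths of 32919 identifiers came from GENCODE M21, an annotation of another build.

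The tests used edgeR 4.0.16 (R 4.3.3) on 1 model of the 12 libraries with 4 groups (TMM scaling, filterByExpr, robust quasi-likelihood, two-sided); a gene was called at a Benjamini-Hochberg adjusted p under 0.05 over 15098 genes tested. Libraries of a group varied by 8.2% (biological coefficient of variation), and the model left 8 residual degrees of freedom. DESeq2 1.42.0, other scalings, no filter, fewer groups, a replicate block and leaving out each library were alternatives. The procedure was also run on simulated counts, and the outcome of that is not reported here. CPM values are counts scaled by library size after TMM; intervals are 95% intervals of the model.

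Same-numbered libraries of the WT and the labelled Gadd45a KO had correlations of their deviations from the group means of 0.34, 0.11 and 0.13. For the other pairs of groups these correlations ran from -0.18 to 0.21. Libraries of unlike number were not compared, so the values do not show a pairing. Nothing in the labels gives a source for one.

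Genes named are the 10 subunits, Ing1, Gadd45a, the called genes of each other list with the lowest adjusted p (at most 4 a comparison), and the 2 genes most alike in log2 CPM (mean of 2 CPM or more) to each called subunit. Sap30l and Brms1l were named for the paralog ratios, and 4 fibroblast markers after their values were seen. Sap18, Ogt and Morf4l1 were named as genes of their list that fell in Ing1 KO against the WT. The subunits, lists and tests were chosen with earlier results of these data known. Some results that were examined are left out of the text. Of the list genes, Mideas was not matched to an identifier.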

Additional observations from a re-analysis of the deposited data

Results flagged for a closer look

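The interaction is the change without Ing1 in the labelled Gadd45a background less that in the WT background. It passed the threshold (edgeR, adjusted p under 0.05) for 1 of the 10 subunits. It also passed for genes named from the other lists, of which 14 are given with their values here. Sap30 had a log2 interaction of 0.74, beside 0.67 for Mxi1, a Max partner that recruits Sin3. Among recruiters with a negative value, Foxk1 had -0.39 and Mnt -0.45. Among NuRD genes, Mbd3 had -0.31 and Gatad2a -0.21. Hdac9 had 1.42. Among the other Rbbp4 and Rbbp7 complexes, Ezh2 had 0.36, Chaf1a 0.34, Chaf1b 0.64, Asf1b 0.64 and Smarca1 0.66. Among fibroblast markers, Dcn had 0.72, Pdgfra 0.86 and Vim -0.51. The 14 genes were named for a low adjusted p or after their values were seen, so their number is not a share of a list. The interaction was also called higher, and never lower, for 13 of 16 replication, 11 of 14 mitosis and 8 of 16 macrophage genes. Over all 15098 genes 17.8% were called for the interaction. The labels of the Gadd45a background are not checked by the counts of Gadd45a, which were higher in it.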

How the results depend on the processing

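Of 830 alternative values of the subunits' log2 fold changes, 798 stayed on their side of the threshold, 21 lost a call, 11 gained one and 0 called values changed sign. Called in every alternative were Sin3a in Ing1 KO (0.19 to 0.23), in the labelled DKO against the WT (0.22 to 0.29) and against the labelled Gadd45a KO (0.22 to 0.29), Brms1 in Ing1 KO (0.23 to 0.35) and the labelled DKO (0.27 to 0.35) against the WT, and Sap30 in the labelled DKO against the WT (0.7 to 0.91), the labelled Gadd45a KO (0.73 to 0.94) and Ing1 KO (0.66 to 0.82).

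Upper quartile scaling called 4 subunits in Ing1 KO in place of 2, with Hdac2 and Arid4b lower, and 3 in the labelled DKO against the WT in place of 5; a fit of only the groups compared also called 3 in the latter. For the labelled Gadd45a KO against the WT, DESeq2 called 28 genes and a fit of only those groups 0, in place of 1; 1331 had an unadjusted p under 0.05. Leaving out each library in turn gave 1858 to 3548 genes and 2 to 4 subunits in Ing1 KO against the WT, with 1858 without Ing1 KO replicate 2, 2113 without WT replicate 2, and 4 subunits without WT replicate 1. It gave 1 to 13 genes and 0 to 0 subunits in the labelled Gadd45a KO (13 without WT replicate 1), and 2754 to 3536 genes and 3 to 5 subunits in the labelled DKO against the WT (3 without DKO replicate 1). Against the labelled Gadd45a KO it gave 2679 to 3404 genes and 3 to 4 subunits, and against Ing1 KO 2249 to 3676 genes and 1 to 2 subunits (2249 without Ing1 KO replicate 2, 2 subunits without its replicate 3). For the interaction it gave 1300 to 3285 genes and 0 to 2 subunits, with 1300 without WT replicate 2, 1599 without WT replicate 3, 1607 without DKO replicate 2 and 1386 without Ing1 KO replicate 2. The cause was not tested; fewer libraries were fitted.

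With a replicate block, the counts of genes were 3434 for Ing1 KO against the WT, 1 in the labelled Gadd45a KO, 3824, 3856 and 3589 in the labelled DKO against the WT, the labelled Gadd45a KO and Ing1 KO, and 2514 for the interaction. The subunits called numbered 2, 0, 5, 4, 1 and 1, with Arid4a called in place of Sin3b in the labelled DKO against the WT, so the block changed no other call. With 3 libraries a group, changes as small as those of Sin3a rest on low spread, and a subunit that was not called is not shown to be unchanged.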
